A study of Mus musculus with 16 samples.

Results

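The transcriptional response to ultraviolet B (UVB) was measured in mouse epidermis lacking the transcription factor C/EBPβ. The comparison set 4 RNA-sequencing libraries from knockout epidermis collected 6 h after a dose of 100 mJ/cm2 UVB against 4 libraries from unexposed knockout epidermis, 8 of the 16 libraries of the series. All mice were SKH-1, a hairless strain with rudimentary follicles, and were 8 to 12 weeks old. The labels describe the knockout as an epidermal specific deletion of C/EBPB. The other 8 libraries came from K5Cre mice, also unexposed or exposed at that dose and time, which carry the Cre recombinase alone. By its name the Cre transgene uses the keratin 5 promoter, which is active in basal keratinocytes and their descendants, so other cells of the sheet would keep an intact gene. Epidermis was separated from the dermis by heat shock, and the unexposed groups went through that step too. The labels do not say that the libraries of a group came from separate animals, so p-values measure the spread between these libraries only. All 49585 genes of the deposited table entered, of which 17741 had enough counts to be tested.

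UVB is absorbed by the outer layers of skin, where it joins neighbouring pyrimidines in DNA into photoproducts. Keratinocytes answer with p53, which arrests the cell cycle and can start apoptosis, with nucleotide excision repair, and with MAP kinase and NF-kB signalling that raises AP-1 factors, growth factors and inflammatory mediators. Bulky photoproducts also block RNA polymerase as it moves along a gene. C/EBPβ is a leucine zipper factor of keratinocyte differentiation and stress responses, and the title of the series ties it to p53 and to the type I interferon response of keratinocytes.

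The tissue matched its label. Keratin 14 (Krt14), the basal keratin, stood between 1257 and 4893 CPM (counts scaled to a common library size) over the 8 knockout libraries, and the suprabasal keratin 10 (Krt10) between 6487 and 20158 CPM; both were chosen after their values were seen. Library totals ran from 36019949 to 53255160 counts. Unexposed library 4 stood apart, with 10.2% of its counts in mitochondrial transcripts and 7.52% in the ribosomal-like transcript Gm42418, against 4.33% to 5.99% and 0.653% to 1.77% in the other 7. Over log2 CPM, exposed libraries correlated with each other at 0.974 to 0.988, unexposed ones at 0.970 to 0.988, and pairs across the groups at 0.921 to 0.966.

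Cebpb itself was nearly silent in the knockout. Its level was 0.702, 0.177, 0.543 and 0.875 CPM in the unexposed libraries and 2.52, 3.03, 0.609 and 1.56 CPM in the exposed ones. The 8 control libraries held 155 to 320 CPM, so every knockout library lay far below every control library. Within the knockout, the small remainder rose after UVB (log2 fold change 1.80, SE 0.43, adjusted p = 0.00513), although exposed library 3 fell within the unexposed range. Here and below, fold changes, standard errors and adjusted p are those of edgeR's quasi-likelihood test with Benjamini-Hochberg adjustment over all tested genes. A gene is said to rise or fall where its adjusted p is under 0.05.

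After UVB, 3207 genes rose (18.1% of those tested) and 2503 fell (14.1%), together 32.2%. In 5088 of these 5710 genes the 4 exposed libraries did not overlap the 4 unexposed ones. Over all 17741 tested genes, 3500 had every exposed library above every unexposed one and 2856 every one below. Calls and overlap come from the same libraries, so the lack of overlap is not separate support for the calls. The rises were often modest, with a median log2 fold change of 0.85, and the falls had a median of -0.92. More than 2-fold rises numbered 1247 and more than 2-fold falls 1075, while 241 genes rose and 37 fell by more than 8-fold. The median over all tested genes was 0.01, so the scaling put the centre of the genes near no change. The share of calls that rose, 56.2%, became 48.7% with upper-quartile scaling, so an excess of rises over falls depended on the scaling.

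**Figure D1:**
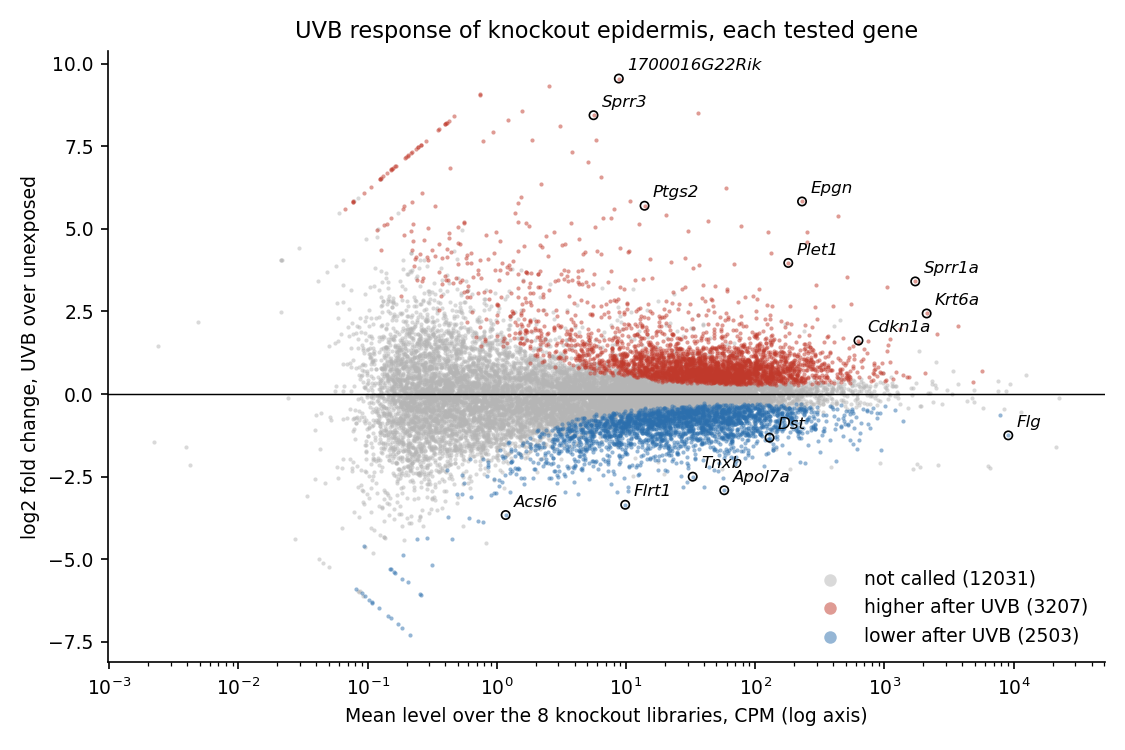
Each point is 1 of 17741 tested genes, with its mean level over the 8 knockout libraries (CPM, log axis) on the x axis and its log2 fold change after UVB on the y axis. Red marks the 3207 genes that rose and blue the 2503 that fell; the highest folds belong to genes at low levels, while Epgn (5.83) and Sprr1a (3.41) combine a large fold with a high level.

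The rise with the smallest p was that of Plet1, a membrane-anchored glycoprotein of surface epithelia (chromosome 9, 50494525 to 50505482, GRCm38). It stood at 20.5, 28, 17.3 and 20.5 CPM in the unexposed libraries and at 244, 367, 292 and 452 CPM in the exposed ones. Every exposed library lay above every unexposed one, and the mean went from 21.6 ± 4.55 to 339 ± 91.2 CPM (SD, n = 4 each; log2 fold change 3.97, SE 0.21, adjusted p = 2.18e-10). Among the other most certain rises were Slc5a8, a monocarboxylate transporter (2.35), Polr2a, the largest subunit of RNA polymerase II (2.15), Nabp1, a single-strand DNA binding protein of the damage response (2.08), and Clcf1, a cytokine of the interleukin-6 family (3.29). Polr2a went from 58.5 to 76.3 CPM to 226 to 357 CPM.

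The largest rises started from almost nothing. 1700016G22Rik had counts in 1 unexposed library (0.125 CPM, library 4) and 12.1 to 25.6 CPM after UVB, a log2 fold change of 9.55, or 12.64 without unexposed library 4. Cdhr2, a cadherin of apical microvilli, had 1 count over the unexposed libraries and 1039 over the exposed ones, a ratio of 1015 with an interval of 182 to 40146 (95%, exact) that covers counting error only. Sprr3, a small proline-rich cornified envelope protein, went from counts in 1 unexposed library (0.106 CPM, library 2) to 4.26, 11.4, 13.1 and 15.9 CPM. Its log2 fold change was 8.44, or 11.95 without unexposed library 2.

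Gkn1, a gastrokine best known from the stomach lining, and Scgb1c1, a secretoglobin, also appeared from near zero. Their log2 fold changes were 8.10 (11.08 without unexposed library 2) and 7.02 (7.76 without unexposed library 3). Gm5414, a keratin-like gene, rose from at most 0.310 CPM to between 49.6 and 104 CPM, with a log2 fold change of 8.52. Folds of this kind rest on a handful of counts on the low side. For 1700016G22Rik, Sprr3 and Gkn1, leaving out the library named left no unexposed counts. The folds given for them without that library are therefore not estimates of size. Genes named for the size of their change had to show no overlap between the groups. A like direction in every exposed library therefore follows from that rule. The strand setting of the counting is not given, so reads of such genes and of any gene overlapping them cannot be told apart.

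The largest falls were smaller than the largest rises. Genes named by size needed a mean of at least 1 CPM over the 8 libraries. A large fall could therefore not start from near 0, as a rise could. Some still started low, such as Acsl6, Gm13562 and Espnl, with unexposed means of 2.17, 2.23 and 1.81 CPM. Tnxb, the extracellular matrix protein tenascin X (chromosome 17, 34670535 to 34719815), went from 46.1, 55.8, 49.4 and 71.6 CPM to 7.62, 11.7, 12.0 and 7.91 CPM, with no overlap (log2 fold change -2.50, SE 0.19, adjusted p = 1.83e-08). Oxct1, the enzyme that lets cells burn ketone bodies, fell by 1.37 on the log2 scale, Car6, a secreted carbonic anhydrase, by 1.81, Slc6a6, the taurine transporter, by 2.32, and Atp2b4, a plasma membrane calcium pump, by 1.70. By size, the largest falls included Flrt1, an adhesion protein (-3.35), Apol7a, an apolipoprotein L gene (-2.91), Cyp26b1, which degrades retinoic acid (-2.82), Pik3c2g, a class II phosphoinositide kinase (-2.81), and Zbtb16, a transcription factor that glucocorticoids raise (-2.81, and -2.21 without unexposed library 4). Acsl6, a fatty acid ligase, fell by 3.66 from a low level, and by 4.58 without exposed library 1.

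**Figure D2:**
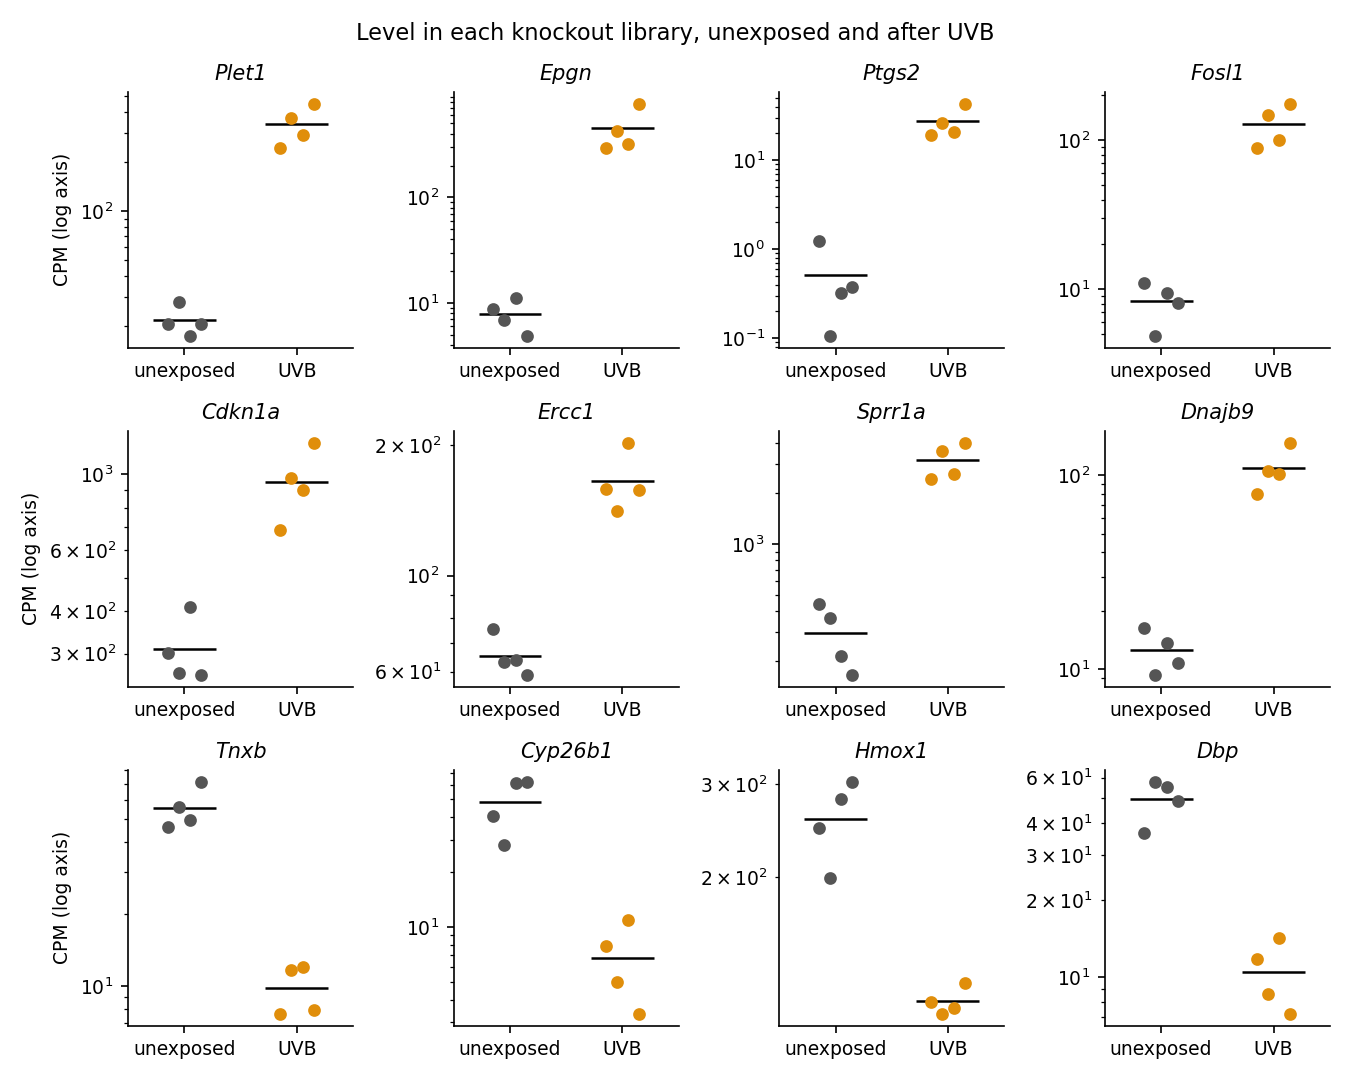
Level in CPM (log axis, a separate range for each gene) of 12 genes in each unexposed (grey) and UVB-exposed (orange) knockout library, with the mean of the 4 as a bar. The upper 8 genes have every exposed library above every unexposed one and the lower 4 genes every exposed library below.

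Gene lists by role are described below by how many of their tested members rose or fell. For all tested genes the shares were 18.1% and 14.1%. Both depend on level: among genes spanning 10 to 30 kb, 2.6% rose and 1.7% fell under 1 CPM. At 10 to 100 CPM, 39.9% of genes of that span rose and 10.5% fell. A list of well expressed genes can thus pass 18.1% without standing out from genes of like level. The lists were not matched for level. The lists were drawn up with earlier results of these data known, so their counts describe these libraries and are not independent evidence.

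Early response transcription factors, the AP-1 subunits among them, gave 17 rises and no fall in 30 tested genes (median log2 fold change 0.77). AP-1 is a dimer of Fos and Jun proteins that binds promoters of stress and growth genes. Fosl1, a Fos family member, showed the largest change of the list. Its libraries read 11, 4.85, 9.43 and 8.03 CPM before and 88.3, 148, 101 and 176 CPM after UVB, without overlap (log2 fold change 3.95, SE 0.30, adjusted p = 8.32e-08). Mafk (1.77), a small Maf partner, Zfp36 (1.72), which speeds decay of inflammatory mRNAs, and Junb (1.07, chosen after its values were seen) rose as well. Jun itself lay at 147 to 192 CPM before and 188 to 197 CPM after UVB (log2 fold change 0.12, adjusted p = 0.503). Fos did not pass with edgeR (1.18, adjusted p = 0.0708) and passed with DESeq2 (0.0426) and limma voom (0.0177). Unexposed library 1 held 57.0 CPM against 11.8 to 14.8 in the other unexposed libraries, and without that library Fos had a log2 fold change of 2.04 (edgeR adjusted p = 1.61e-05).

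Of the 11 MAP kinase phosphatases, which switch off ERK, p38 and JNK, 8 rose and none fell, with a median of 1.52. Dusp10 went from 0.655 to 1.18 CPM to 7.41 to 11.1 CPM (log2 fold change 3.39), and Dusp6, a feedback inhibitor of ERK, from 6.56 to 11.6 CPM to 41.1 to 79.2 CPM (2.73). Both had every exposed library above every unexposed one.

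For 17 NF-kB subunits and feedback genes, 9 rose and 1 fell (median 0.70). Rela, the main transactivating subunit, rose from 38.3, 37.7, 34.5 and 25.2 CPM to 115, 187, 154 and 215 CPM (log2 fold change 2.31, SE 0.18, adjusted p = 2.45e-08). Bcl3, a nuclear IkB protein, rose by 1.64 and Icam1, an adhesion molecule for leukocytes, by 1.33. The gene that fell was Nfkb1, the p105/p50 subunit, by a small amount (-0.38, adjusted p = 0.0203, chosen after its values were seen), and its exposed libraries lay within 142 to 145 CPM.

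Growth factors of the epidermal growth factor (EGF) family split. Of 14 genes, 5 rose and 1 fell, and the median was 0.10. Epgn, which encodes epigen, a ligand of the EGF receptor, stood at 8.73, 6.97, 11.2 and 4.87 CPM in the unexposed libraries and at 292, 429, 318 and 771 CPM in the exposed ones. It had the largest rise of the family, with every exposed library far above every unexposed one (log2 fold change 5.83, SE 0.36, adjusted p = 2.87e-08). Amphiregulin (Areg, 2.27), neuregulin 1 (Nrg1, 1.62) and heparin-binding EGF (Hbegf, 1.56, chosen after its values were seen) rose, as did the receptor's feedback inhibitor Errfi1 (1.43). Betacellulin (Btc, chosen after its values were seen), another ligand, fell from 96.3 to 143 CPM to 20.9 to 38.8 CPM (-2.03, adjusted p = 0.000381).

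The related factors Cebpa and Cebpd rose after UVB in the knockout. In the control they rose too, Cebpa by 0.7 (adjusted p = 0.00125) and Cebpd by 1.14 (adjusted p = 0.00213). The difference between the genotypes was not called for either (adjusted p = 0.973 and 0.998). In the knockout the values were as follows. Cebpa went from 203 to 318 CPM to 384 to 538 CPM (log2 fold change 0.81, adjusted p = 0.000346) and Cebpd from 3.47 to 6.63 CPM to 9.75 to 12.8 CPM (1.10, adjusted p = 0.00303). In all, 5 of 6 tested genes on the C/EBP list rose, with the near-silent remainder of Cebpb among them. The others were Cebpa, Cebpd, Ddit3 (0.51) and Cebpz (0.71), the last listed for its name only. Ddit3 and Cebpz were chosen after their values were seen.

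**Figure D3:**
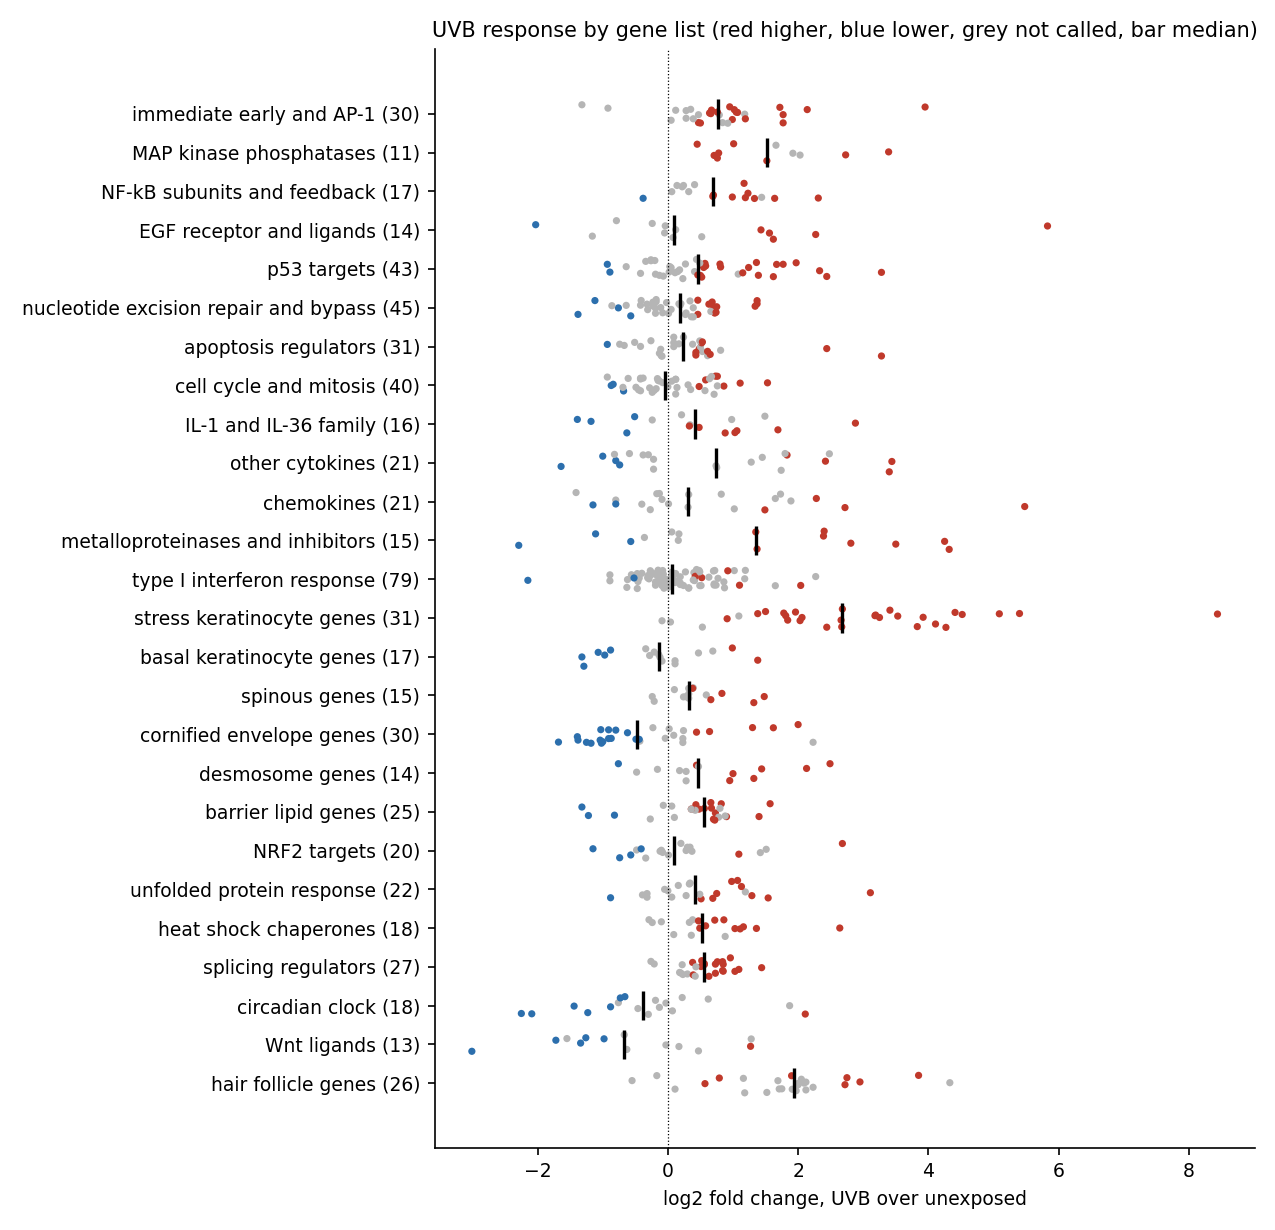
Log2 fold change after UVB of every tested member of 26 gene lists, 1 point per gene, with the list's median as a bar and its number of tested members in brackets. Stress keratinocyte genes lie farthest to the right (median 2.67), most cornified envelope and circadian clock genes that passed the test lie to the left, and type I interferon response genes centre near 0 (median 0.06).

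p53 is held down by Mdm2 and acts by transcription of arrest and death genes. The transcript of p53 itself, Trp53, read 21.5, 26.2, 22.1 and 14.7 CPM before and 33.3, 40.0, 25.2 and 34.4 CPM after UVB. The groups overlapped, and the rise (log2 fold change 0.65, SE 0.20, adjusted p = 0.0137) did not pass without unexposed library 4 (adjusted p = 0.087), without exposed library 2 (0.0617) or without exposed library 4 (0.0557). In the control epidermis it did not pass (-0.07, adjusted p = 0.815), and the difference between the genotypes was 0.72 (unadjusted p = 0.0164, adjusted p = 0.783). Of the 8 genes of the p53 family and its feedback 4 rose and 2 fell, but only 2 rose without unexposed library 4 and 1 without exposed library 4. The members that fell were Trp73, which encodes p73 (-0.93), and Mdm4, an inhibitor of p53 (-0.49).

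Some transcripts that p53 induces rose more clearly than its own, and others were not called. Of 43 tested p53 targets, 20 rose and 2 fell, and for 21 the test gave no call. Their median log2 fold change was 0.46, below the 0.65 of Trp53, and 12 rose without exposed library 4. Bbc3 (-0.26), Gadd45a (-0.2), Fas (-0.13) and Ddb2 (-0.42) were among those without a call, all chosen after their values were seen. Cdkn1a, the cell cycle inhibitor p21 (chromosome 17, 29090976 to 29100727), read 301, 264, 410 and 260 CPM before and 689, 975, 900 and 1237 CPM after UVB. All exposed libraries were above all unexposed ones (log2 fold change 1.62, SE 0.18, adjusted p = 1.23e-06). Mdm2 rose by 1.24 from between 66.0 and 92.4 CPM to between 157 and 256 CPM, and Ccng1, cyclin G1, by 2.33. Aen, an apoptosis-enhancing nuclease, rose by 1.97, Epha2, an ephrin receptor, by 1.77, and Sfn, the 14-3-3 sigma protein of arrested keratinocytes, by 1.67 (chosen after its values were seen). Besides Trp73, the target that fell was Sesn1, a sestrin (-0.89, chosen after its values were seen).

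Of 31 apoptosis regulators 9 rose and 1 fell (median 0.24). Pmaip1, which encodes the BH3-only protein Noxa, went from 16.1, 9.54, 7.12 and 3.69 CPM to 62.9, 90.7, 78.8 and 123 CPM (log2 fold change 3.28, SE 0.38, adjusted p = 1.13e-05). Tnfrsf10b, the death receptor for TRAIL, rose by 2.44 and Casp8, the caspase it activates, by 0.61. Inhibitors of apoptosis were also among the rises, Birc2 at 0.65, Mcl1 at 0.48 and Cflar at 0.43, all chosen after their values were seen. Without exposed library 4 the adjusted p was 0.058 for Mcl1 and 0.081 for Cflar. The survival factor Bcl2 fell (-0.93, adjusted p = 0.0017).

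Repair genes moved in both directions. Of 45 nucleotide excision repair and lesion bypass genes, 14 rose, 4 fell and 27 did not pass (median 0.19). Ercc1, a subunit of the nuclease that cuts 5′ of a lesion (chromosome 7, 19344778 to 19356524), read 75.3, 63.1, 63.8 and 58.9 CPM before and 159, 141, 203 and 158 CPM after UVB, without overlap (log2 fold change 1.34, SE 0.13, adjusted p = 2.27e-07). The sliding clamp Pcna (1.37) and the polymerase delta subunit Pold4 (1.37) rose by similar amounts. Falls included Rev3l, the catalytic subunit of the bypass polymerase zeta (-1.38), and Xpa, which verifies the damaged strand (-1.12, chosen after its values were seen). The 40 cell cycle genes had a median of -0.04, with 7 that rose, among them Ccnd1 (0.73), Mcm7 (0.76) and Cdc20 (1.11), and 3 that fell, among them Ccnd2 (-0.84). The number that rose was 3 or 4 without unexposed library 3 or 4 or exposed library 1, 2 or 4.

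Prostaglandins drive the reddening and pain of sunburn. Ptgs2, the inducible cyclooxygenase COX-2 (chromosome 1, 150100031 to 150108227), was at 1.24, 0.106, 0.322 and 0.375 CPM before and 19.2, 26.3, 20.7 and 43.1 CPM after UVB. No library of one group reached the other (log2 fold change 5.70, SE 0.64, adjusted p = 7.73e-06), and the fold was larger without unexposed library 1 (6.72). The prostaglandin E synthase Ptges rose by 0.93, while Abcc4, which exports prostaglandins, fell by 1.03. Of 16 genes of the pathway 5 rose and 3 fell (median 0.54).

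The IL-1 and IL-36 family, with 7 of 16 genes higher and 4 lower (median 0.41), changed in both directions. Il1b read 4.34, 1.89, 0.603 and 1.31 CPM before and 12.0, 17.1, 13 and 18.4 CPM after UVB (log2 fold change 2.88, or 3.57 without unexposed library 1). The receptor antagonist Il1rn rose by 0.88. Both the shared receptor subunit Il1rap (-1.39) and the decoy receptor Il1r2 (-1.18) fell. The number of rises was 4 without exposed library 4, and the number of falls 2 without exposed library 2.

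Among 21 other tested cytokines and receptors, 4 rose and 4 fell (median 0.74). Il24 rose from 0.187 to 1.49 CPM to 4.47 to 10.6 CPM (log2 fold change 3.44, or 4.29 without unexposed library 1), while both chains of the IL-20 receptor, which binds it, fell, Il20ra by 1.64 and Il20rb by 1.00. Il24 and Tnf (1.83) were chosen after their values were seen. Inhba, the activin A subunit, rose by 3.40, and Tslp, the keratinocyte cytokine that acts on dendritic cells, by 2.42. Il6 was too low to be tested. It had counts in 1 unexposed library (0.0625 CPM) and read 0.484, 0.716, 0 and 1.24 CPM in the exposed libraries.

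Chemokines changed in a few members, 4 of 21 higher and 2 lower (median 0.31). Ccl20, which attracts CCR6-bearing cells, went from 2.06 to 6.07 CPM to 16.9 to 31.9 CPM (log2 fold change 2.72, SE 0.26, adjusted p = 2.27e-07). The neutrophil attractant Cxcl1 reached 1.64 to 3.54 CPM from at most 0.121 CPM (5.48, or 6.08 without unexposed library 3). Cxcl16 rose by 1.49. Ccl27a, a skin-homing chemokine of resting keratinocytes, fell by 1.15, with groups that overlapped.

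Matrix-degrading enzymes and vascular factors moved in both directions. Mmp10, stromelysin 2, read 0.636, 0.779, 1.71 and 0.937 CPM before and 12.5, 24.4, 15.5 and 28.4 CPM after UVB, and no exposed library came near the unexposed range (log2 fold change 4.32, SE 0.42, adjusted p = 5.4e-07). Timp1, an inhibitor of these enzymes, rose by 4.25 and the aggrecanase family member Adamts1 by 2.39, whereas the keratinocyte protease Mmp28, epilysin, fell by 2.29. Counts for the 15 genes of this list were 8 up and 3 down (median 1.35), with 5 up without unexposed library 4. In the vascular and plasminogen list, 6 of 17 rose and 2 fell (median 0.51). Edn1, endothelin 1, rose by 2.32 and Serpinb2, the inhibitor PAI-2, by 2.51, or 1.88 without exposed library 4. Thbs1, thrombospondin 1, fell by 1.63, with overlapping groups.

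Type I interferon signals through Ifnar1 and Ifnar2 and raises a large set of antiviral genes, here 79 tested. Of these 5 rose and 2 fell, 6.33% and 2.53%, both below the shares of all tested genes, and their median was 0.06. These counts rested on single libraries, with 1 to 7 rises and 0 to 4 falls when each of the 8 was left out. At one end, 1 gene rose and 4 fell without unexposed library 4 or without exposed library 4, and 3 rose and 4 fell without unexposed library 2. At the other, 7 rose and none fell without exposed library 1, 6 rose and 1 fell without unexposed library 1, and none fell without unexposed library 3 or exposed library 2. The falls also depended on the scaling, with 6 under upper-quartile scaling. Isg20, an antiviral exonuclease, rose from 2.85 to 8.43 CPM to 18.5 to 27.9 CPM (log2 fold change 2.04, adjusted p = 5.81e-06). Ddx60, a helicase that helps sense viral RNA, fell from 26.9 to 74.1 CPM to 4.69 to 19.0 CPM (-2.15, adjusted p = 0.0189). Its adjusted p was 0.053, 0.0556 and 0.0577 without unexposed library 3, exposed library 1 and exposed library 2.

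Isg15, a ubiquitin-like product of interferon signalling, spread widely within both groups. It read 107, 64.6, 204 and 78.1 CPM before and 42.3, 63.1, 99.2 and 174 CPM after UVB, overlapping throughout (log2 fold change -0.26, SE 0.53, adjusted p = 0.778). Irf7, the factor that amplifies interferon production, behaved alike, with 41.0 to 115 CPM before and 32.3 to 72.5 CPM after UVB (-0.56, adjusted p = 0.286). Ifnb1 had counts in 1 unexposed library (0.326 CPM) and 1 exposed library (0.305 CPM), and Ifnk was listed at 0 in all 8. A 0 in this table does not show that a transcript was absent, since Rpl13 and Rpl24, ribosomal protein genes that every cell uses, were also listed at 0 in all 8 libraries. The receptor subunit Ifnar1 rose (0.65, adjusted p = 0.00679), and Ifnlr1, the receptor of type III interferon, fell from 32.2 to 65.2 CPM to 16.2 to 22.5 CPM (-1.36, adjusted p = 6.35e-06).

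Genes that keratinocytes switch on under stress made the most uniform group. Of 31, 27 rose and none fell, and the median log2 fold change was 2.67. Their summed level was 3642 to 9970 CPM in the unexposed and 19465 to 36153 CPM in the exposed libraries. Sprr1a, a small proline-rich envelope protein (chromosome 3, 92483952 to 92485895), read 439, 364, 215 and 166 CPM before and 2429, 3581, 2597 and 4008 CPM after UVB, far apart from each other (log2 fold change 3.41, SE 0.31, adjusted p = 4.84e-07). Sprr2h rose by 3.53, the gap junction protein Gjb6 by 2.68 and the crosslinking enzyme Tgm1 by 1.38. Lce3c, a late envelope gene of injured skin, rose by 5.40.

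The keratins of wounded and activated epidermis rose together: Krt6a by 2.44, Krt16 by 2.06 and Krt17 by 1.81 (these and Lce3c were chosen after their values were seen). Krt6a read 1226, 677, 458 and 276 CPM before and 2475, 3779, 3406 and 4662 CPM after UVB. Members of the Sprr, Lce and keratin families are similar in sequence, and reads could be shared or lost between them in the authors' counting.

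Basal genes did not move as 1 group. Of 17 genes, 2 rose and 5 fell (median -0.14). The integrin subunits Itgb1 (1.38) and Itga3 (0.99) rose, and parts of the anchorage to the basement membrane fell: Dst, the hemidesmosome plakin, from 179 to 191 CPM to 57.2 to 84.7 CPM (log2 fold change -1.32, SE 0.13, adjusted p = 3.3e-07), and Lama3, a chain of laminin 332, by 0.97. Krt15, a keratin of resting basal and bulge cells, fell by 1.29 (chosen after its values were seen). Without unexposed library 1 the counts were 4 up and 3 down, and without exposed library 2 there were 3 falls. Krt14 (0.69, adjusted p = 0.175) and Krt5 (-0.34, adjusted p = 0.275, chosen after its values were seen) did not pass. Their unexposed levels spread from 1257 to 4272 CPM and from 580 to 1292 CPM, and each passed when 1 unexposed library was left out, Krt14 as a rise without library 1 (adjusted p = 0.0328) and Krt5 as a fall without library 4 (0.0405).

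Among 15 spinous genes 5 rose and none fell (median 0.32), with Lypd3 at 1.48 and the desmosomal cadherin Dsc1 at 1.32. Desmosome genes, which hold neighbouring keratinocytes together, gave 7 rises and 1 fall of 14 (median 0.46). Dsg1b rose by 2.13, Dsg3, the pemphigus vulgaris antigen, by 1.44, and Evpl, envoplakin, by 1.00. Of 25 barrier lipid genes 13 rose and 3 fell (median 0.56): Alox12b, the lipoxygenase that oxidises skin ceramides, rose by 1.57 and Cyp4f39, a fatty acid hydroxylase, by 1.40, while Sphk1, sphingosine kinase 1, fell by 1.22.

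Cornified envelope genes of the normal outer layer fell: 16 of 30 were lower and 5 higher (median -0.47), against 14.1% lower over all tested genes. Most of these were late cornified envelope genes of the Lce1 cluster. Lce1m went from 1196, 1004, 2033 and 1538 CPM to 512, 339, 532 and 417 CPM, with no overlap (log2 fold change -1.68, SE 0.24, adjusted p = 2.51e-05), and Lce1d fell by 1.18. Flg, filaggrin, which bundles keratin filaments and feeds the moisturising factor, fell from 8976 to 20283 CPM to 4239 to 7702 CPM (-1.25, adjusted p = 0.000391). Lor, loricrin, the main envelope protein (chromosome 3, 92080271 to 92083142), fell by 0.62 (adjusted p = 0.0179, but 0.0965 without unexposed library 3). Flg and Lor were chosen after their values were seen. Cnfn, cornifelin, was among those that rose (1.3) and, without unexposed library 2, the number of rises was 3.

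In the unfolded protein response of the endoplasmic reticulum 9 of 22 genes rose and 1 fell (median 0.41). Dnajb9, a cochaperone of that compartment, went from 16.3, 9.34, 13.7 and 10.8 CPM to 79.8, 105, 101 and 147 CPM (log2 fold change 3.11, SE 0.20, adjusted p = 3.46e-09). Its partner Hspa5, BiP, rose by 1.54 and Atf4 by 1.07. Of 18 heat shock chaperones 10 rose and none fell (median 0.53), with Hsp90aa1 at 2.64 and the mitochondrial chaperonin Hspd1 at 1.16. Every sample had passed through the heat step that separates the epidermis.

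Oxidative stress genes under NRF2 did not rise as a group, with 2 of 20 higher and 4 lower (median 0.10). Srxn1, sulfiredoxin, rose from 27.2 to 43.4 CPM to 154 to 310 CPM (log2 fold change 2.68). Hmox1, heme oxygenase 1, a gene often used to mark oxidative injury, fell from 247, 199, 281 and 303 CPM to 116, 110, 113 and 126 CPM, with a clear gap (-1.15, SE 0.16, adjusted p = 1.46e-05). Txnrd1, thioredoxin reductase, fell by 0.74. Leaving out unexposed library 1, unexposed library 2 or exposed library 3 gave 4 rises, and leaving out unexposed library 1 gave 2 falls.

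Splicing regulators rose broadly, 18 of 27 with none lower (median 0.56), among them Srsf6 (1.44) and Tra2a (1.03), both proteins that choose exons. In the circadian clock list 7 of 18 fell and 1 rose (median -0.38). The clock output factor Dbp read 36.6, 57.9, 55.2 and 48.5 CPM before and 11.8, 8.58, 14.2 and 7.19 CPM after UVB, without overlap (log2 fold change -2.25, SE 0.24, adjusted p = 1.06e-06). Its relatives Hlf (-2.09) and Tef (-1.23) fell too, and Nfil3, a repressor that binds the same sites, rose (2.11, chosen after its values were seen). The labels do not give the hour of collection, and a part of time of day in these values was not tested.

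Wnt ligands fell in 5 of 13 and rose in 1 (median -0.67). Wnt7b went from between 70.9 and 129 CPM to between 23.0 and 47.1 CPM (log2 fold change -1.72), Wnt3 fell by 1.34 and Wnt4 by 0.98, and Wnt11, a noncanonical ligand, rose by 1.27. In retinoid metabolism 8 of 17 rose and 4 fell (median 0.68). Rdh10, which oxidises retinol, rose by 1.08 and Dgat1, which esterifies it, by 1.71, while Cyp26b1, described above, read 28.1 to 62.4 CPM before and 3.33 to 10.9 CPM after UVB. Of 20 Notch pathway genes 3 rose and 2 fell: the ligand Dll1 by 1.63 and the coactivator Maml2 by -1.18. Mt4, the metallothionein of squamous epithelium, fell by 1.94, and 1 of the other 6 metallothionein and zinc genes tested rose.

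Markers of other cells bear on these values, since in bulk tissue fewer cells of a type and less RNA per cell cannot be told apart. The 15 Langerhans cell markers summed to 750 to 1111 CPM before and 997 to 1240 CPM after UVB, and 1 rose, Cd207 (langerin, 1.06). Without unexposed library 2, 5 rose. The class II gene H2-Aa did not pass (0.52, adjusted p = 0.0998). Epidermal T cell markers summed to 56.3 to 100 CPM before and 71.0 to 133 CPM after UVB. Of 14, 3 rose, among them Il2rb (1.81), and 1 rose without unexposed library 1, exposed library 2 or exposed library 4.

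The neutrophil list summed to 142 to 231 CPM before and 329 to 594 CPM after UVB, and its defining marker Ly6g was listed at 0 in the 8 libraries, as was Itgam of the macrophage list. As with Ifnk, these zeros do not show absence. Of the 7 tested members of the neutrophil list 3 rose, 1 fell and 3 did not pass. The rises include S100a8 (1.84), which stressed keratinocytes also make, and the fall was that of Il1r2 (-1.18). Trem1, a myeloid receptor, rose from at most 0.424 CPM to between 0.677 and 1.83 CPM (log2 fold change 3.09, or 4.19 without unexposed library 1). Monocyte and macrophage markers summed to 10.8 to 17.7 CPM before and 27.5 to 41.8 CPM after UVB. Cd68, a lysosomal protein, was the 1 of 9 that rose (2.37). At 31.4 CPM in exposed library 4 it made up most of the sum there, so the summed level largely follows this gene. Fibroblast markers summed to 53.2 to 88.1 CPM and 45.2 to 57.4 CPM, with 1 of 9 lower, Fap (-1.94). How far infiltrating or residual cells account for the inflammatory and matrix values was not tested.

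Hair follicle and sebaceous genes varied by library. Of 26 hair follicle genes 7 rose and none fell, and the median was 1.94. Their summed level was 1542 to 2340 CPM in unexposed and 1682 to 7758 CPM in exposed libraries. Krt28, an inner root sheath keratin, showed the pattern: 2.02, 2.87, 2.31 and 3.28 CPM before, and 38.6, 27.1, 1.94 and 2.52 CPM after UVB. Exposed libraries 1 and 2 were high, and libraries 3 and 4 lay at the unexposed level. Its log2 fold change was 2.75 (adjusted p = 0.0402), or 2.01 without exposed library 1, and it did not pass without any 1 of the 4 unexposed libraries or of exposed libraries 1 and 2 (adjusted p 0.0836 to 0.131). The list's count was 3 without unexposed library 1, 3 or 4 or exposed library 1 or 2, and 15 without exposed library 4. With DESeq2 the count was 16 and with limma voom 2. Of 11 sebocyte markers 5 were higher (median 2.18), 9 without exposed library 3 and 4 to 6 without any other single library. DESeq2 called 9 of them higher and limma voom 2. Awat1, a wax synthase of sebaceous glands, read 1.21, 9.38, 3.30 and 5.44 CPM before and 71.5, 56.1, 4.15 and 32.2 CPM after UVB. Exposed library 3 lay within the unexposed range. The rise of Awat1 (log2 fold change 3.09, adjusted p = 0.0155) did not pass with limma voom (adjusted p = 0.131). It also did not pass in the edgeR fit of the 8 knockout libraries alone (adjusted p = 0.054). Exposed libraries 1 and 2 were from females and 3 and 4 from males, by the expression of sex-linked genes, as were the unexposed libraries of the same numbers. With a term for sex in the fit, a test added after seeing the data, 4 hair follicle genes rose.

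Gene span, the distance from the start to the end of a gene, sorted the response. Of 5493 tested genes under 10 kb, 23.2% rose and 3.53% fell, with a median log2 fold change of 0.35. For 5155 genes of 10 to 30 kb these values were 25.1%, 8.34% and 0.18, and for 4574 genes of 30 to 100 kb they were 12.8%, 20.3% and -0.20. Of 1892 genes of 100 to 300 kb, 2.38% rose and 39.4% fell, with a median of -0.65, and of 587 genes over 300 kb, 1.36% rose and 34.4% fell, with a median of -0.88. Rises were thus most frequent among short genes and falls among long ones.

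The contrast between short and long genes was also present within levels of expression. Among genes of 10 to 100 CPM, 47.3% of those under 10 kb rose and 6.00% fell, while 3.77% of those over 300 kb rose and 79.9% fell (median -1.01, n = 159). Among genes above 100 CPM the median went from 0.42 under 10 kb to -1.03 over 300 kb. Genes with under 2 kb of exon sequence showed it as well, from 0.36 under 10 kb of span to -0.94 over 300 kb, although the latter held 23 genes. Of the exposed libraries, 1, 2 and 4 had medians of -0.90, -0.81 and -0.92 for genes over 300 kb, computed from log2 of CPM plus 0.5 against the unexposed mean, and library 3 stood apart at -0.14. That gap lay at low levels: among these long genes library 3 had medians of 0.40 under 1 CPM and -0.03 at 1 to 10 CPM, but -0.92 at 10 to 100 CPM, beside -0.93, -1.02 and -1.05 in libraries 1, 2 and 4, and -0.73 above 100 CPM, beside -0.83, -1.03 and -0.98. Leaving library 3 out moved the median of these genes relative to all genes from -0.89 to -1.28. In control epidermis the medians ran 0.30, 0.05, -0.22, -0.51 and -0.38 from the shortest to the longest genes. For genes of 10 to 100 CPM in the knockout libraries, the control medians ran 0.35, 0.16, -0.20, -0.61 and -0.75. Among genes over 300 kb the control median was 0.07 under 1 CPM and -0.21 at 1 to 10 CPM.

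**Figure D4:**
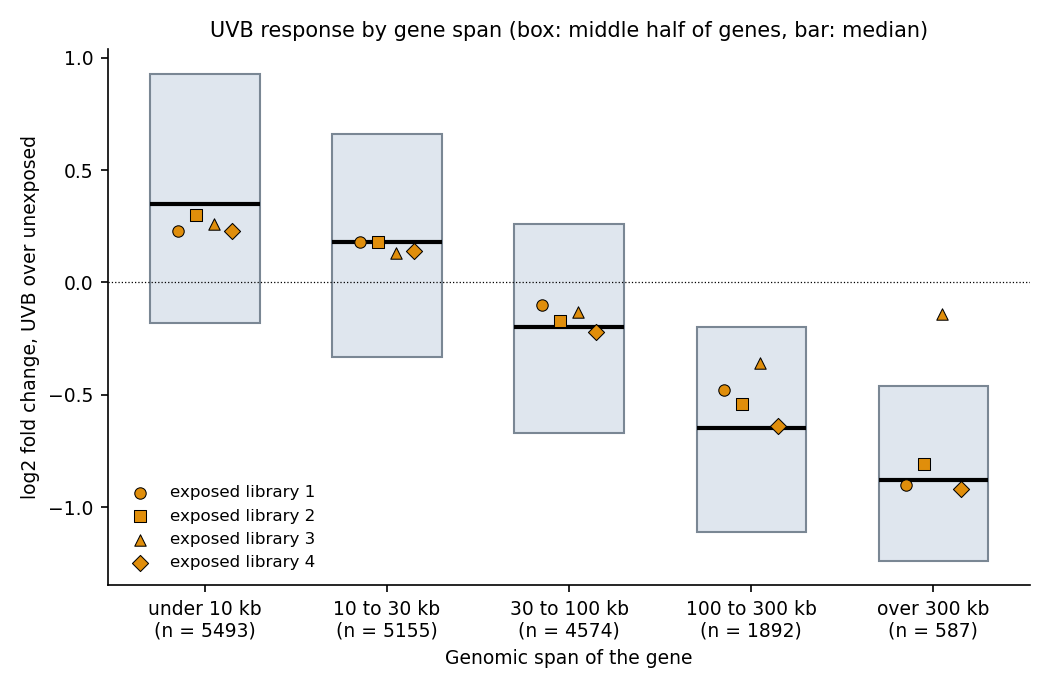
Log2 fold change after UVB (y axis) for genes grouped by genomic span (x axis, with the number of genes). Boxes run from the lower to the upper quartile of the genes and bars mark the medians, which fall from 0.35 to -0.88; orange symbols give each exposed library's median, with library 3 at -0.14 among genes over 300 kb.

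Promoter windows of 250 bases before to 50 after the annotated start were read from RefSeq (GRCm38.p6), and 12379 tested genes had a window. The windows printed below are examples chosen with the results known, and they do not stand for the rest. The first 2 below belong to strong rises, the next to an inflammatory gene with a C/EBP palindrome, the next to a repair gene, and the last to a gene that fell. Capitals mark exact matches on either strand. For AP-1 the string searched was TGACTCA, which reads TGAGTCA on the other strand. The TATA box was searched as TATAAA, and the palindrome that C/EBP proteins bind best as TTGCGCAA. The E-box string was CACGTG, another palindrome, and that of ETS factors was CCGGAAGT. A match is a string of letters and not by itself a binding site.
Sprr1a promoter, chr3:92485832-92486131, minus strand: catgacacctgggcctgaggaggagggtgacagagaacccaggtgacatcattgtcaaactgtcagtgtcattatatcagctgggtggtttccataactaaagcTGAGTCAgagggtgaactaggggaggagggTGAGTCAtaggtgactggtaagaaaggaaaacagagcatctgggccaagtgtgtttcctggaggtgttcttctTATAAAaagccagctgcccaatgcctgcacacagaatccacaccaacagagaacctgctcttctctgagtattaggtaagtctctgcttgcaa
Mmp10 promoter, chr9:7502092-7502391, plus strand: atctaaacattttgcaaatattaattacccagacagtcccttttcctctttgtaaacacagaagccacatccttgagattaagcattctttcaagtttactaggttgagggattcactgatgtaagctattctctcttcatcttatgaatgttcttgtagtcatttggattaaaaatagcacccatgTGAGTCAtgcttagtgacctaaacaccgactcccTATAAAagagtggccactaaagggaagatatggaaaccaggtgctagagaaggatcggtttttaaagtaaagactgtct
Ptgs2 promoter, chr1:150099781-150100080, plus strand: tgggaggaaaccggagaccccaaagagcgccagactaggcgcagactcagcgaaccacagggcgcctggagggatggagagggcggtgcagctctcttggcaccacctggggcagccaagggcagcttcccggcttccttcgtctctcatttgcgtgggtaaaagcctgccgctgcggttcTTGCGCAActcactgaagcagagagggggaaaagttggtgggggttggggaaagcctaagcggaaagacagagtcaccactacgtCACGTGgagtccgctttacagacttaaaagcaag
Ercc1 promoter, chr7:19344821-19345120, plus strand: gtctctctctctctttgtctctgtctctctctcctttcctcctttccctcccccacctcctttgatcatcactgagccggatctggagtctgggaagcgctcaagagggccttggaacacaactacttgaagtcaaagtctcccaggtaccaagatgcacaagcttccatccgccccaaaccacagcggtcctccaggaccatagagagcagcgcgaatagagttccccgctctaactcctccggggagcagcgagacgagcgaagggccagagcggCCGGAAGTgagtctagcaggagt
Lor promoter, chr3:92083093-92083392, minus strand: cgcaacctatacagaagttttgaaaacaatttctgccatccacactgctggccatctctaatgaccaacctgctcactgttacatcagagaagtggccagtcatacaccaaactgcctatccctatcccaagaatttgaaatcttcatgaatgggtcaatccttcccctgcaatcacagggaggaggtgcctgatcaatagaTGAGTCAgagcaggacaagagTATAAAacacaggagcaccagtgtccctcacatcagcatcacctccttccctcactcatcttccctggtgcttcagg

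Sprr1a holds AP-1 letters at 146 and 116 bases and a TATA box at 43 bases before the start. Mmp10 has AP-1 letters at 63 and a TATA box at 29 bases before the start, and Ptgs2 has the C/EBP palindrome at 69 bases before it and an E-box after it. Lor, which fell, has the same pair as the genes that rose, AP-1 letters at 48 and a TATA box at 27 bases before the start. The AP-1 letters were as common in promoters of all rises (4.02% of 2437) as in all 12379 windows (4.02%), and stood in 3.69% of 1952 falls. In the 245 rises with a log2 fold change of 2 or more, a cutoff chosen after the values were seen, they stood in 10.6%, and the TATA box in 22.4% against 8.81% of all windows. ETS letters, as in Ercc1, stood in 12.4% of rises, 4.15% of falls and 7.25% of all windows, but in 2.04% of the strong rises. The C/EBP palindrome was rare, in 0.451% of rises and 0.259% of all windows.

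The control comparison asks whether the response differs when C/EBPβ is present. It rests on 8 other libraries, so the 2 responses share none. In K5Cre epidermis 17.7% of tested genes rose and 18.0% fell. Of the 5710 genes called in the knockout, 4514 were also called in the control, 79.1% of the knockout's calls and 71.2% of the control's, and 4513 of them had the same direction. Of the 1196 called only in the knockout, 1142 had the same sign in the control. Across all 17741 tested genes the 2 sets of log2 fold changes correlated at Pearson's r = 0.63 and Spearman's rho = 0.69, and over the 8352 genes with 10 CPM or more at r = 0.91, genes not being independent replicates.

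The test of the difference between the 2 responses called 0.0% of genes, that is 0 of 17741, with edgeR. At an unadjusted p under 0.05 there were 1043 (5.88%). DESeq2 called 31, of which 6 had the more positive change in the knockout and 25 the more negative. The median standard error of a difference was 0.41 on the log2 scale, so modest differences were not detectable at this number of libraries. edgeR called 1 without exposed knockout library 1 and 2 without exposed knockout library 4. Without exposed control library 4, a setting added after seeing the data, it called 1.

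**Figure D5:**
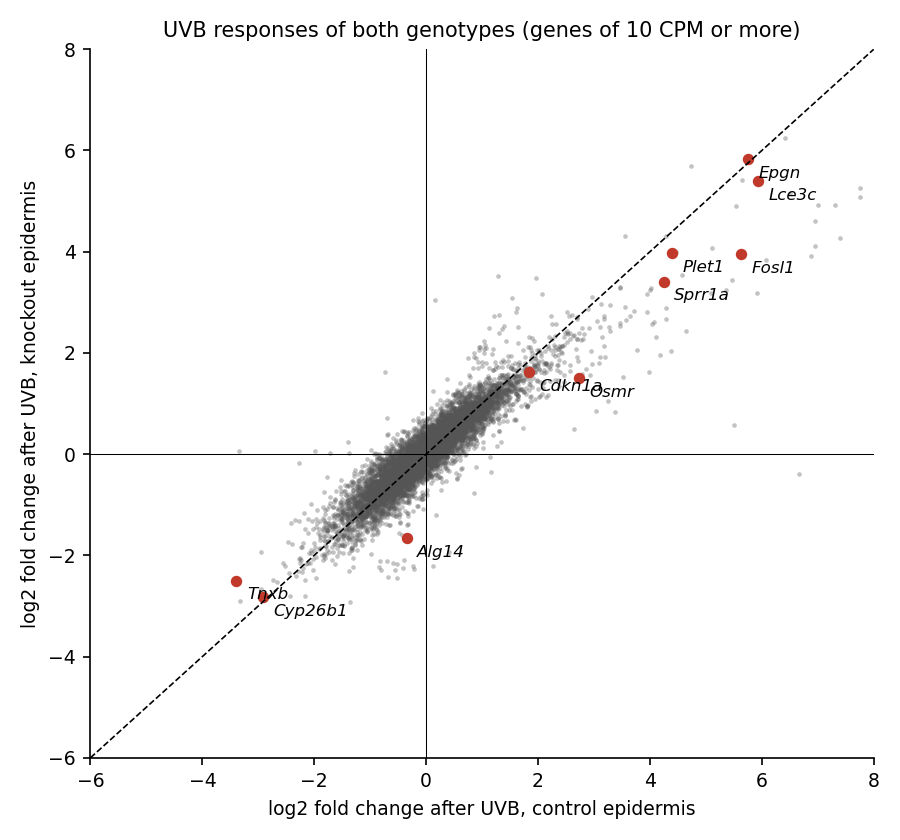
Log2 fold change after UVB in control epidermis (x axis) and in knockout epidermis (y axis) for 8349 of the 8352 genes with a mean of 10 CPM or more, 3 lying outside the axes; the dashed line marks equal change. Over these genes the 2 responses correlated at r = 0.91, against 0.63 over all tested genes, with Osmr (1.5 against 2.73) and Fosl1 (3.95 against 5.63) below it.

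The lowest unadjusted p of the difference belonged to Osmr, the receptor of oncostatin M, an IL-6 family cytokine that activates keratinocytes. It rose in the knockout from 42.4, 40.0, 35.6 and 44.6 CPM to 85.6, 114, 114 and 146 CPM (log2 fold change 1.5), and in the control from 24.9, 25.5, 28.9 and 26.2 CPM to 194, 176, 189 and 139 CPM (2.73). The unexposed knockout libraries lay above the unexposed control ones. The difference of -1.22 (SE 0.20) had an adjusted p of 0.114 with edgeR and 0.00018 with DESeq2. Alg14, an enzyme of N-glycan assembly, fell in the knockout from 17.0 to 27.1 CPM to 5.50 to 7.72 CPM (-1.66), against -0.35 in the control (difference adjusted p = 0.312 with edgeR, 0.0043 with DESeq2). 1700072G22Rik, a gene without a described role, rose by 6.56 in the knockout and 3.59 in the control (difference adjusted p = 0.312 with edgeR, 0.00355 with DESeq2).

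List medians are given here for both genotypes, and differences between medians were not tested. The 79 interferon response genes had 3 rises and 26 falls in the control (median -0.50), against 5 and 2 in the knockout, and 14 of them had an unadjusted p under 0.05 for the difference with edgeR. DESeq2 called the difference for 1 of them, Cmpk2 (8.91 on the log2 scale, SE 1.48, adjusted p = 1.61e-05), and edgeR called none. The change of Cmpk2 within the knockout was itself not called (0.77, edgeR adjusted p = 0.517). Stress keratinocyte genes had a median of 4.25 in the control against 2.67, and 15 of 31 had an unadjusted p under 0.05 with edgeR. DESeq2 called the difference for 4 of them, Sprr2e (adjusted p = 0.0043), Sprr2f (0.00575), Lce3a (0.0119) and Sprr2d (0.0232), while edgeR called none. These and Cmpk2 were chosen after their values were seen. Krt6a, with 47.6 to 207 CPM in unexposed control and 276 to 1226 CPM in unexposed knockout libraries, rose by 4.64 in the control and 2.44 in the knockout. After UVB it reached 1788 to 4014 CPM in the control and 2475 to 4662 CPM in the knockout, ranges that overlap.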

How the data were processed

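Per the labels' protocols, RNA was extracted with QiaZOL, treated with DNase I and made into libraries with the NEBNext Ultra Directional kit. The authors deposited raw read counts per Ensembl gene for 16 libraries; per the submitters' processing notes the tools were FastQC, STAR, HTSeq and DESeq2, while build, annotation, versions and strand setting were not given in the sources used here. Of 49585 genes, 49326 matched a symbol and model in GENCODE M21 (GRCm38), and 20578 had no count in any library. Among counts of 2 to 101, 68.8% were even, against 50% for unrelated whole numbers.

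Counts were tested with edgeR 4.0.16 (R 4.3.3): filterByExpr, TMM scaling, 1 mean per group over all 16 libraries, robust quasi-likelihood, and a threshold of 0.05 on the adjusted p. CPM uses TMM library sizes. Replicates differed beyond sampling noise (lowest chi-square per degree of freedom 41.8). Alternatives were other scalings, filters and tools (DESeq2 1.42.0, limma 3.58.1), each of the 8 knockout libraries left out and, added after seeing the data, a term for sex and, for the difference between genotypes, each control library left out. The test was also run on simulated counts with known changes, and the outcome is not given here. Text and figures used Python 3.11.15, pandas 2.3.3 and matplotlib 3.10.9.

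Named genes were up to 12 per direction with the largest fold change (adjusted p under 0.05, mean of 1 CPM, no overlap), up to 10 per direction with the smallest p, fixed genes of interest, up to 4 per list and 6 by the test of the difference; others are said to be chosen after their values were seen. The members and lists were chosen with earlier results of these data known.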

Additional observations from a re-analysis of the deposited data

Results flagged for a closer look

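For each of 172 genes and both knockout groups, the library lying far from the other 3 was looked for with Dixon's gap ratio at its 95% critical value, which chance alone passes in about 1 group in 20; 22 of 344 groups did. In 7 of them 3 libraries were at 0, which sets the ratio at its highest value by construction, so these 7 are not to be read against that rate. Unexposed library 1 was high for Fos (57.0 CPM), Sprr2h (139), Lce3c (35.4), Gjb6 (72.9) and Ifnb1 (0.326). Unexposed library 2 was the one with counts for Sprr3 (0.106) and Gkn1 (0.0708), and unexposed library 4 for 1700016G22Rik (0.125), Cdhr2 (0.0312) and Il6 (0.0625). Unexposed library 4 was also high for Mmp28 (54.2) and low for Srsf6 (85.4). After UVB, library 1 was low for Nfkb1 (142) and high for Tef (52.9), library 2 low for Il1rap (14.6), and library 3 high for Car6 (60.9) and Ifnb1 (0.305) and low for Pcna (17.5). Exposed library 4 was high for Dsc1 (457) and Cd68 (31.4) and low for Rev3l (5.14) and Alg14 (5.50).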

How the results depend on the processing

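Across scalings, filters, DESeq2, limma, a fit of the 8 knockout libraries alone, a term for sex and each of the 8 knockout libraries left out, the number of genes that rose ranged from 2424 to 3451 and of those that fell from 1986 to 3049, from 3207 and 2503. Leaving out single knockout libraries gave 2424 to 3102 rises and 1986 to 2419 falls. DESeq2 shared 5523 of the 5710 calls and limma 5583. Tested against a fold of 1.5, 1121 genes rose and 809 fell, and at an adjusted p under 0.01 there were 2317 rises and 1662 falls; both ask for more evidence by construction. For the difference between genotypes, 2 genes were called with no filter on low counts and 31 with DESeq2, 0 to 2 when single knockout libraries were left out and 0 to 1 when single control libraries were, a setting added after seeing the data; the cause was not tested. Of the named genes, Isg15 (-0.26) ranged from -0.79 to 0.18 when single knockout libraries were left out, a change of sign without unexposed library 3, and was not called in any of them. No paired analysis was possible because the replicate numbers only follow the order of deposit and pair no libraries across groups. With 4 libraries a group and a median standard error of 0.29 (log2), small changes could be missed.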

Other observations

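Of 81 ribosomal protein genes, 10 rose and none fell (median 0.18), with Rpl7l1, a ribosome assembly paralogue, leading at 1.59; the count was 4 without unexposed library 4 and 5 without exposed library 4. Of 315 zinc finger genes, 37 rose and 28 fell (median -0.06), with 17 falls without exposed library 2. The 13 mitochondrial transcripts gave no call (median -0.29), and their summed level was 35560 to 97559 CPM in unexposed and 45065 to 51144 CPM in exposed libraries, the highest in unexposed library 4. Of 54 keratin-associated protein genes, the matrix proteins of hair shafts, 4 rose (median 1.2), and between 1 and 7 did when single libraries were left out.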
